A study of Mus musculus with 10 samples.

Results

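The HRD1 complex of the endoplasmic reticulum (ER) membrane was followed through 10 genes chosen by name: the ubiquitin ligase Syvn1 (HRD1), its adaptors Sel1l, Herpud1, Herpud2 and Selenos, the derlins Derl1, Derl2 and Derl3, and the lumenal lectins Os9 and Erlec1. Each name matched 1 Ensembl identifier among the 48709 in the count tables through GENCODE M21, and all 10 were among the 15660 genes that passed the expression filter and were tested. Polyadenylated RNA came from cultures of mouse hippocampal neurons, taken directly from tissue and grown for 10 days in vitro. The 6 tunicamycin libraries were from cultures given the agent at 2 ug/mL for 6 h, and the 4 DMSO libraries from cultures given only the solvent for 6 h. The labels name no mouse strain, sex or age, no genotype and no pooling of animals.

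The HRD1 complex clears misfolded proteins from the ER in a process called ER-associated degradation. Lectins and chaperones hand a misfolded client to SEL1L and HRD1, derlins and HRD1 form the passage through the membrane, HRD1 attaches ubiquitin on the cytosolic side, and the ATPase p97 pulls the client out for the proteasome. Tunicamycin blocks N-linked glycosylation, which loads the ER with misfolded glycoproteins and sets off the unfolded protein response. Genes of this machinery are known targets of that response, through the transcription factors ATF6, XBP1 and ATF4. Neurons make large amounts of membrane and secreted glycoproteins, such as receptors and adhesion molecules, in the ER.

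Libraries held 21055289 to 29234887 counts, and levels are given as CPM, counts scaled to a library total of 1e6. Neuron markers were abundant, with a summed level over 6 genes of 5143 to 5438 CPM with tunicamycin and 6203 to 6707 CPM with DMSO. Markers of other cells were measured too. Their summed levels over 6 genes each were 1810 to 2031 CPM with tunicamycin and 2550 to 2922 CPM with DMSO for astrocytes, 11.1 to 13.3 CPM and 13.9 to 17.9 CPM for microglia, 27.2 to 30.2 CPM and 25.0 to 41.2 CPM for the oligodendrocyte lineage, 65.7 to 107 CPM and 83.3 to 147 CPM for endothelial, mural and fibroblast cells, and 45.9 to 57.3 CPM and 79.4 to 101 CPM for proliferating cells, with tunicamycin first in each pair. No marker was at 0 in every library. By edgeR's quasi-likelihood test 5 of 6 neuron, 6 of 6 astrocyte, 4 of 6 microglia and 6 of 6 proliferation markers fell, against 32.5% of all genes tested. Of 5 oligodendrocyte lineage markers tested 2 fell and 1 rose (Mog, log2 0.46), and of 5 endothelial, mural and fibroblast markers tested 1 fell and 1 rose (Flt1, 1.19). Of the most abundant marker in each list, Map2 (log2 fold change -0.20), Slc1a2 (-0.38) and Top2a (-0.75) fell, though Map2 (-0.0923, adjusted p = 0.409) and Slc1a2 (-0.23, adjusted p = 0.0598) missed the threshold in sequencing lane 1 alone, while Aif1 (-0.0015), Mbp (0.05) and Col1a1 (-0.51) did not pass the test. The part of these shifts in the changes of the HRD1 genes was not tested. In whole cultures, fewer cells of a type and less RNA per cell cannot be told apart.

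All 10 HRD1 genes rose with tunicamycin at an edgeR adjusted p under 0.05. Over all genes tested, 31.8% rose, 32.5% fell and 64.3% changed in either direction, so being called is common here and the size of the change says more. Of the 10 genes, 6 rose at least 2-fold, against 2.78% of all genes tested, and 2 of them (Herpud1 and Derl3) at least 4-fold, against 0.498%. The median log2 fold change of the 10 was 1.14, against -0.02 over all genes tested. All tunicamycin libraries lay above all DMSO libraries for 9 of the 10, which held for 27.0% of all genes tested, while 23.9% lay wholly below; the exception was Os9. Upper-quartile scaling placed the median change over every gene tested at -0.13 on the log2 scale. It gave 3632 higher and 6934 lower genes, against 4983 and 5082. Under it 9 of the 10 rose, against 23.2% of all genes. At least 2-fold rises were found for 5 of the 10, and the share over all genes was not counted for this scaling. The authors' deposited table of upregulated genes lists all 10 among its 4697 genes, with log2 fold changes from 0.20 for Erlec1 to 2.91 for Herpud1.

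**Figure D1:**
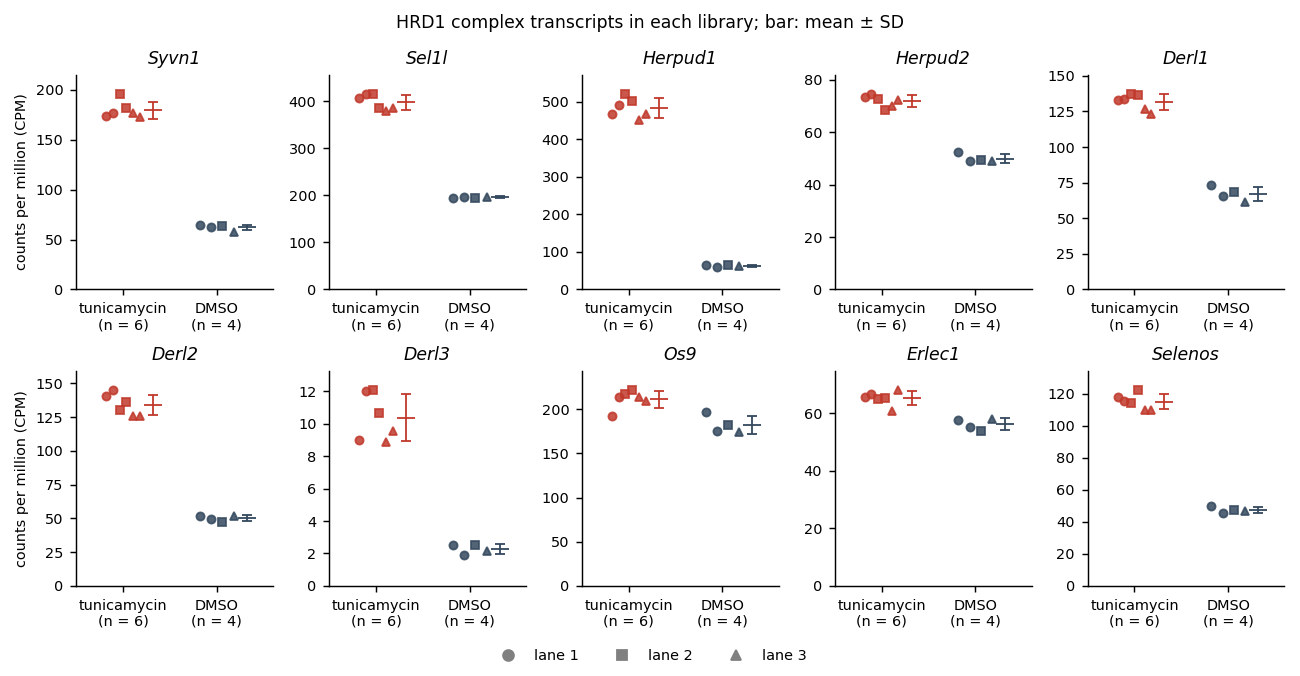
CPM of the 10 HRD1 complex genes in each library, tunicamycin (red, n = 6) left of DMSO (blue, n = 4), with marker shape for the sequencing lane and a bar for the mean ± SD. The groups are apart for 9 genes, and for Os9 the lowest tunicamycin library (193 CPM) lies under the highest DMSO library (197 CPM).

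Promoter sequence was read for 8 of the 10 genes, from RefSeq on GRCm38.p6, as windows of 300 bases from 250 before to 50 after an annotated start. Derl2 has a pair of such windows, and Derl1 and Erlec1 have none in the table. All distances are counted from the RefSeq start of a window, which can differ from the GENCODE coordinates given with each gene. Both strands were searched for 4 response elements. The ER stress response element (ERSE) has the letters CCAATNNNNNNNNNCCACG and is held by 0.137% of the 27025 genes with a window, and its relative ERSE-II has the letters ATTGGNCCACG and is held by 0.0444%. Both are known to bind ATF6 together with the factor NF-Y. The core of the unfolded protein response element, TGACGTGG (0.714% of genes), is known for XBP1, and the C/EBP-ATF element TTGCATCA (1.03%) for ATF4 and its partners. The short boxes CCACG and CCAAT, which are parts of ERSE and ERSE-II and so are counted again within them, stood in 35.5% and 41.1% of genes. A match is a description of letters only.

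Syvn1 encodes HRD1, the RING-type ubiquitin ligase at the centre of the complex (ENSMUSG00000024807, chromosome 19, 6046576 to 6053712, plus strand, GRCm38). Its window held 1 ERSE, which starts 44 bases before the annotated start. It is shown from 80 to 21 bases before that start (chr19:6046496-6046555, plus strand), because it is 1 of the 2 full ERSE matches among the 8 HRD1 genes with a window, with the defined ERSE letters in capitals.
Syvn1: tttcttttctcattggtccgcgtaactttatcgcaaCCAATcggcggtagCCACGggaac

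Syvn1 ran from 172 CPM through a median of 176.5 CPM to 195.5 CPM in tunicamycin libraries, against 64.3, 62.9, 63.0 and 57.9 CPM in DMSO libraries 1 to 4. Every tunicamycin library was at least 2.68 times the highest DMSO library. This was a 2.87-fold rise (log2 1.52 ± 0.04, SE; edgeR adjusted p = 1.13e-18), rank 154 among the 15660 genes ordered by fold change. With the sequencing lanes, read from the names of the deposited count tables, fitted alone, it was 1.47, 1.56 and 1.59 in lanes 1, 2 and 3. In lanes 2 and 3 the DMSO group is a single library, so its spread is assumed equal to that of the others.

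Sel1l encodes the partner that holds HRD1 stable and receives clients from the lectins (ENSMUSG00000020964, chromosome 12, 91806043 to 91849157, minus strand). Its levels were 379 to 415 CPM with a median of 396 CPM with tunicamycin, against 194.5, 197, 193.5 and 197 CPM with DMSO. The DMSO libraries were nearly level, with a coefficient of variation of 0.991%, and the tunicamycin libraries spread more, at 4.03%. This difference in spread was not tested. Sel1l rose 2.02-fold (log2 1.02 ± 0.03, edgeR adjusted p = 9.77e-17), with 1.07, 1.03 and 0.95 in lanes 1, 2 and 3 alone and 0.90 under upper-quartile scaling. Its promoter window held none of the 4 elements, but 1 CCACG and 4 CCAAT boxes.

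Herpud1 and Herpud2 encode relatives with a ubiquitin-like domain facing the cytosol. HERP, the product of Herpud1, is a short-lived membrane protein that joins HRD1 to the derlins, and the role of Herpud2 is less well known. Herpud1 (ENSMUSG00000031770, chromosome 8, 94386438 to 94395377, plus strand) was the only HRD1 gene of the 8 with an ERSE-II, starting 52 bases before its start, and the only one with a C/EBP-ATF element, 112 bases before it. Herpud2 (ENSMUSG00000008429, chromosome 9, 25108132 to 25151820, minus strand) held none of the 4 elements and neither short box. Both are shown from 130 to 31 bases before the RefSeq start, to set the relatives side by side (chr8:94386299-94386398, plus strand, and chr9:25151812-25151911, minus strand). For Herpud2 that start lies inside the GENCODE coordinates given here, and the stretch partly overlaps them. Capitals mark the C/EBP-ATF element and then the defined letters of ERSE-II.
Herpud1: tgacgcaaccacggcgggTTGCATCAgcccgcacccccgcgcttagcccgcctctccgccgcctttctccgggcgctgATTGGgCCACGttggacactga
Herpud2: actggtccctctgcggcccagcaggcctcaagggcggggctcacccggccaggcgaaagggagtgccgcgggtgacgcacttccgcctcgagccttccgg

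Herpud1 had the largest fold change of the 10. It ran from 452 CPM through a median of 479 CPM to 520.0 CPM with tunicamycin, against 65.4, 60.7, 65.5 and 62.3 CPM with DMSO. The lowest tunicamycin library was 6.91 times the highest DMSO library. The 7.57-fold rise (log2 2.92 ± 0.04, edgeR adjusted p = 2.54e-22) ranked 18 among all genes tested, and lanes 1, 2 and 3 alone gave log2 values of 2.93, 2.94 and 2.87.

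Herpud2 responded far less. Its levels were 68.5 to 74.6 CPM with a median of 72.7 CPM in tunicamycin libraries, against 52.5, 48.9, 49.6 and 48.9 CPM in DMSO libraries. The groups did not overlap, and the rise was 1.43-fold (log2 0.52 ± 0.04, edgeR adjusted p = 3.66e-11). Within each library, the log2 ratio of Herpud1 to Herpud2 counts was 2.74 ± 0.09 (SD, n = 6) with tunicamycin and 0.35 ± 0.04 (SD, n = 4) with DMSO. This ratio was therefore 5.27 times higher with tunicamycin, by an exact permutation test over all 210 ways to assign the libraries (two-sided p = 0.00476, the smallest this design allows, and 0.00544 adjusted over the 8 ratios tested). It was higher in all 6 tunicamycin libraries than in any DMSO library, and the difference was 2.38, 2.45 and 2.33 on the log2 scale in lanes 1, 2 and 3.

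The derlins are rhomboid-like proteins without protease activity that thin the membrane beside HRD1. All 3 genes rose, by different amounts. Derl3 (ENSMUSG00000009092, chromosome 10, 75893413 to 75895941, plus strand) held the other full ERSE, on the opposite strand, where its match covers the bases from 156 before the start onwards. It is shown from 180 to 121 bases before the start (chr10:75893218-75893277, plus strand), with the reverse complement of the ERSE letters in capitals.
Derl3: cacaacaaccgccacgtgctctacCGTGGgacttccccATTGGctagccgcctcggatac

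Derl3 was the rarest of the 10 genes and the second largest in fold change. It had 8.87 to 12.1 CPM with a median of 10.1 CPM with tunicamycin, from 215 to 316 counts a library. With DMSO it had 2.52, 1.89, 2.54 and 2.18 CPM, from 58, 51, 55 and 48 counts. Its coefficient of variation was the highest of the 10, at 13.9% with tunicamycin and 13.6% with DMSO. The rise was 4.55-fold (log2 2.18 ± 0.12, edgeR adjusted p = 1.66e-12), with 2.28, 2.15 and 2.08 in lanes 1, 2 and 3 alone.

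Derl2 (ENSMUSG00000018442, chromosome 11, 71007164 to 71019841, minus strand) had 126 to 145 CPM with a median of 133 CPM with tunicamycin, against 51.7, 49.7, 47.1 and 52.0 CPM with DMSO. It rose 2.66-fold (log2 1.41 ± 0.04, edgeR adjusted p = 5.18e-17). Neither of its windows held any of the 4 elements, and the second held 5 CCAAT boxes. Lane 3 alone gave 1.27, lower than 1.499 and 1.48 in lanes 1 and 2.

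Derl1 (ENSMUSG00000022365, chromosome 15, 57869502 to 57892448, minus strand) had 123 to 137 CPM with a median of 133 CPM with tunicamycin, against 73.1, 65.9, 68.6 and 61.5 CPM with DMSO. The rise was 1.95-fold (log2 0.96 ± 0.04, edgeR adjusted p = 1.31e-14), with 0.95, 0.98 and 1.02 in lanes 1, 2 and 3 alone. Of the 50-base words of its transcripts, 5.56% also occur in transcripts of other genes, so some of its reads could be shared. For the other 9 genes this share was at most 2.27%.

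The derlins were also set against each other as count ratios, taken within each library and then compared between the groups. The log2 ratio of Derl2 to Derl1 counts was 0.02 ± 0.07 with tunicamycin (SD, n = 6) and -0.42 ± 0.13 with DMSO (SD, n = 4), a difference of 0.45 (exact permutation p = 0.00476, adjusted 0.00544). The difference was 0.55, 0.50 and 0.25 in lanes 1, 2 and 3. For Derl3 to Derl2 the log2 ratio was -3.70 ± 0.18 with tunicamycin and -4.46 ± 0.22 with DMSO, a difference of 0.76 with the same exact permutation p. For Derl3 to Derl1 the difference was 1.20, also with p = 0.00476 by the exact permutation test. This last ratio is fixed by the other derlin ratios, so its test adds nothing separate. None of the 3 derlin ratios overlapped between tunicamycin and DMSO libraries, and how often other gene pairs do so was not measured.

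Os9 and Erlec1 encode lectins of the ER lumen that read mannose-trimmed N-glycans on clients and pass them to SEL1L. They rose least of the 10 genes. Os9 (ENSMUSG00000040462, chromosome 10, 127095650 to 127121131, minus strand) had 193 to 221 CPM with a median of 213.5 CPM in tunicamycin libraries, against 197, 175.5, 183 and 174 CPM in DMSO libraries. Tunicamycin library 1 was below DMSO library 1, so the groups overlapped. Os9 rose 1.15-fold (log2 0.20 ± 0.04, edgeR adjusted p = 8.06e-05). It missed the threshold under upper-quartile scaling (log2 0.09, adjusted p = 0.0527) and in lane 1 alone (0.13, adjusted p = 0.135), and was 0.24 and 0.28 in lanes 2 and 3. With each library left out in turn it stayed between 0.185 and 0.239.

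The Os9 window held none of the 4 elements. It had 1 CCACG and 4 CCAAT boxes, not at the ERSE spacing, and is shown from 120 to 31 bases before the start as an example of boxes without the full element (chr10:127121191-127121280, minus strand), with both boxes in capitals.
Os9: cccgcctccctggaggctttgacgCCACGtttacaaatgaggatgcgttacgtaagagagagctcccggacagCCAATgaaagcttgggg

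Erlec1 (ENSMUSG00000020311, chromosome 11, 30930774 to 30954335, minus strand) had 60.8 to 67.8 CPM with a median of 65.3 CPM with tunicamycin, against 57.8, 55.3, 53.8 and 58.1 CPM with DMSO. The groups were apart by a narrow margin, the lowest tunicamycin library being 1.05 times the highest DMSO library. Erlec1 rose 1.15-fold (log2 0.20 ± 0.04, edgeR adjusted p = 7.12e-05), with 0.23, 0.25 and 0.14 in lanes 1, 2 and 3 alone and 0.09 under upper-quartile scaling (adjusted p = 0.0388). The log2 ratio of Os9 to Erlec1 was 1.70 ± 0.09 with tunicamycin (SD, n = 6) and 1.69 ± 0.09 with DMSO (SD, n = 4). Their difference of 0.0015 did not pass the exact permutation test (p = 0.976) and was -0.10, -0.01 and 0.14 in lanes 1, 2 and 3.

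Selenos encodes a selenoprotein, also called VIMP, that sits beside the derlins and draws p97 to the membrane (ENSMUSG00000075701, chromosome 7, 66079649 to 66089405, plus strand). It had 109.6 to 122 CPM with a median of 115 CPM with tunicamycin, against 50.0, 45.6, 47.6 and 46.6 CPM with DMSO. It rose 2.41-fold (log2 1.27 ± 0.04, edgeR adjusted p = 2.21e-17), with 1.29, 1.29 and 1.23 in lanes 1, 2 and 3 alone. Its window held no full element. The last 90 bases before its start (chr7:66079559-66079648, plus strand) are shown because they hold 3 CCACG boxes and a reversed CCAAT box close together, in capitals.
Selenos: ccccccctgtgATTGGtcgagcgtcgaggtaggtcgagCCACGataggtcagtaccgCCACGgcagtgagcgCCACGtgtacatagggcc

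**Figure D2:**
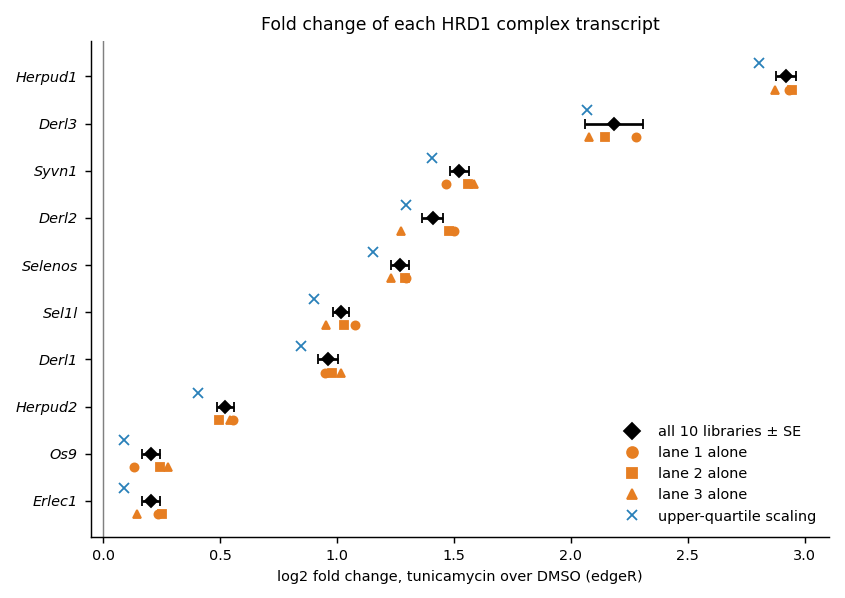
Log2 fold change, tunicamycin over DMSO, of each HRD1 gene with all 10 libraries (black, ± SE), with each lane alone (orange) and under upper-quartile scaling (blue cross). Herpud1 (2.92) and Derl3 (2.18) stand at the top, Os9 and Erlec1 (0.20 each) at the bottom, and every point is above 0.

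The 3 HRD1 genes whose windows held an ERSE or ERSE-II, namely Herpud1, Derl3 and Syvn1, were also the 3 with the largest fold changes. ERSE was already named for ER stress before this search, and nothing is concluded from its overlap with the largest rises. The part of these elements in the fold changes was not tested. Among the 5 others with a window, the log2 fold changes were 1.41 for Derl2, 1.27 for Selenos, 1.02 for Sel1l, 0.52 for Herpud2 and 0.20 for Os9. None of the 8 held TGACGTGG.

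Measured against the ligase itself, the transcript proportions of 3 members changed. The other members were not tested against Syvn1. The log2 ratio of Herpud1 to Syvn1 was 1.43 ± 0.05 with tunicamycin (SD, n = 6) and 0.03 ± 0.07 with DMSO (SD, n = 4), and the difference was 1.47, 1.38 and 1.29 in lanes 1, 2 and 3. The ratio of Sel1l to Syvn1 went the other way, at 1.15 ± 0.07 with tunicamycin and 1.66 ± 0.08 with DMSO, so Sel1l per Syvn1 was 0.703 times that with DMSO, with log2 differences of -0.39, -0.53 and -0.64 in the 3 lanes. The ratio of Selenos to Syvn1 was -0.64 ± 0.08 with tunicamycin and -0.39 ± 0.06 with DMSO, with differences of -0.17, -0.27 and -0.36. Each of these 3 had an exact permutation p = 0.00476 (adjusted 0.00544), with no overlap between the groups. Of the 8 ratios tested, that of Os9 to Erlec1 was the only one not to pass. How often ratios of other gene pairs pass or lie apart was not measured. Of all single genes tested, 27.0% lay wholly above and 23.9% wholly below, so ratios that lie apart may be common here.

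**Figure D3:**
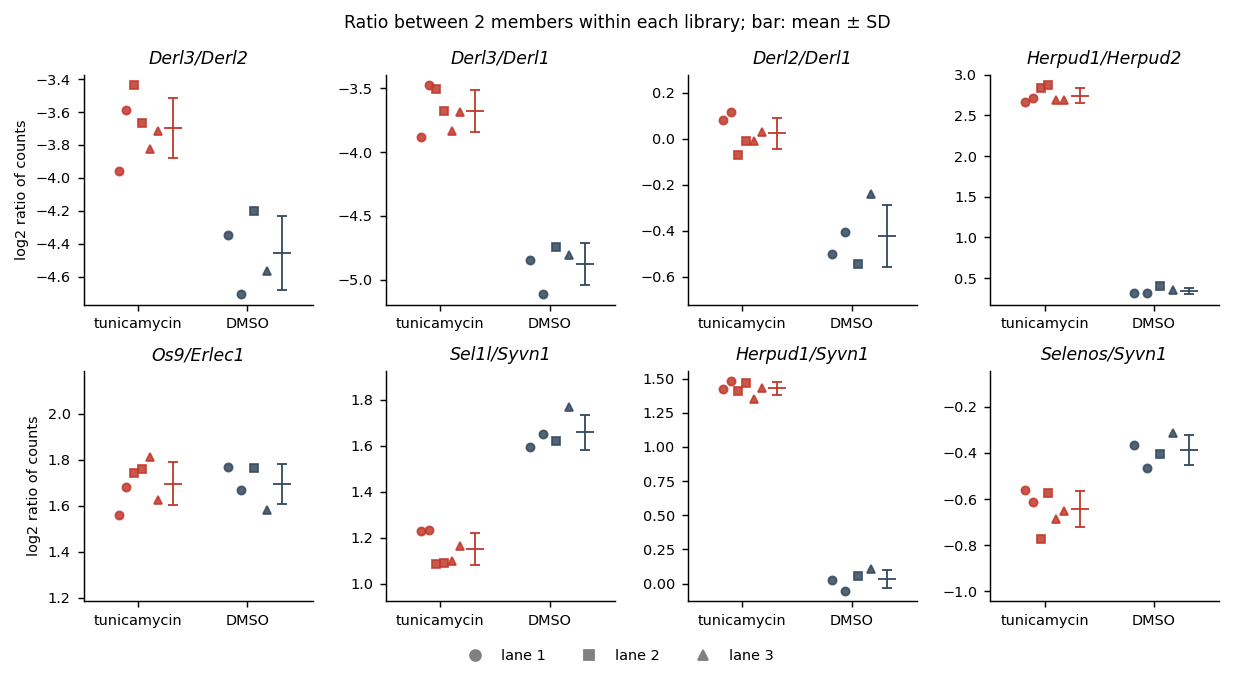
Log2 ratio of the counts of 2 HRD1 genes within each library, tunicamycin (red, n = 6) left of DMSO (blue, n = 4), with marker shape for the lane and a bar for the mean ± SD; the vertical scales differ between panels. Groups are apart in 7 panels and overlap for Os9 to Erlec1, where the means are 1.70 and 1.69.

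Levels of different genes were compared as CPM per kilobase of merged exons. With tunicamycin the order was Herpud1 (207 ± 11.01), Os9 (80.3 ± 3.78), Selenos (77.8 ± 3.17), Sel1l (46.5 ± 1.87), Derl1 (39.6 ± 1.67), Syvn1 (36.9 ± 1.75), Erlec1 (19.98 ± 0.73), Derl2 (16.6 ± 0.96), Herpud2 (12.3 ± 0.39) and Derl3 (5.204 ± 0.72; SD, n = 6). Neighbours overlapped between libraries for Os9 and Selenos and for Derl1 and Syvn1. With DMSO the order was Os9 (69.3 ± 3.95), Selenos (32.1 ± 1.27), Herpud1 (27.2 ± 1.01), Sel1l (22.9 ± 0.23), Derl1 (20.2 ± 1.46), Erlec1 (17.2 ± 0.62), Syvn1 (12.8 ± 0.59), Herpud2 (8.53 ± 0.29), Derl2 (6.23 ± 0.28) and Derl3 (1.14 ± 0.16; SD, n = 4), with no overlap between neighbours. The lectin Os9 thus led under DMSO and Herpud1 under tunicamycin, and Syvn1 stood above Erlec1, and Derl2 above Herpud2, only under tunicamycin. With the longest transcript as the length, Herpud1 under tunicamycin and Os9 under DMSO still led and Derl3 stayed last. Under tunicamycin that length put Selenos above Os9, Syvn1 above Derl1 and Derl2 above Erlec1. Under DMSO it put Erlec1 above Derl1, and libraries of those neighbours and of Herpud1 and Sel1l then overlapped.

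Summed over the 10 genes, the level was 542 ± 19.9 CPM per kilobase with tunicamycin (SD, n = 6) and 218 ± 8.14 with DMSO (SD, n = 4). Herpud1 made up 38.2 ± 0.67% of that sum with tunicamycin and 12.5 ± 0.30% with DMSO. Os9 made up 14.8 ± 0.63% with tunicamycin and 31.8 ± 0.62% with DMSO. Selenos kept a similar share, 14.3 ± 0.49% with tunicamycin and 14.7 ± 0.14% with DMSO. These sums are a description of transcripts, with no test, and a transcript level is not a protein level.

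**Figure D4:**
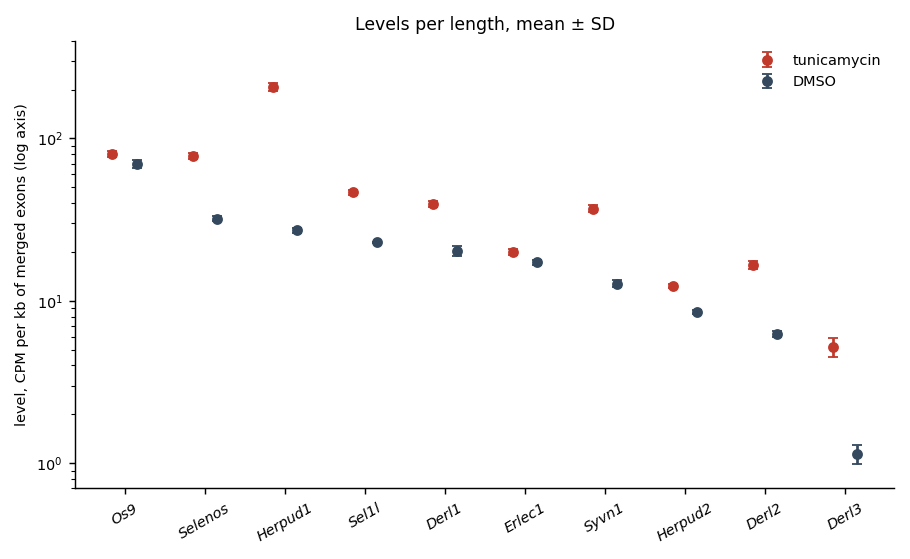
Mean level ± SD of each HRD1 gene in CPM per kilobase of merged exons on a log axis, tunicamycin (red, n = 6) left of DMSO (blue, n = 4), with genes in the DMSO order. Herpud1 reaches 207 with tunicamycin against 27.2 with DMSO, while Os9 (80.3 against 69.3) and Erlec1 (19.98 against 17.2) lie close together.

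Transcripts of partner proteins of the complex rose widely as well. Of 22, 19 rose, 1 fell and 2 did not pass the test, with a median log2 fold change of 0.40. For all genes tested these shares were 31.8% rising and 32.5% falling, with a median of -0.02. Sdf2l1, a cofactor of the chaperone BiP, had 102 ± 6.10 CPM with tunicamycin (SD, n = 6) and 14.9 ± 1.59 CPM with DMSO (SD, n = 4), a 6.81-fold rise. Hspa5, which encodes BiP itself, rose 5.2-fold and Hsp90b1, the ER form of Hsp90, 2.76-fold (edgeR adjusted p = 7.65e-20 and 1.18e-18). By fold change the third partner was the BiP co-chaperone Dnajb9, at 4.98-fold (edgeR adjusted p = 2.03e-14). Exons of Hsp90b1 overlap other genes in 15.7% of their bases, so its counts may hold reads of those. On the cytosolic side, the p97 cofactors Ufd1 (log2 0.30), Ubxn4 (0.29) and Faf2 (0.54) rose. Vcp, which encodes p97, fell (log2 -0.17, adjusted p = 0.00235), and Nploc4 (0.0018, adjusted p = 0.973), a p97 cofactor, and Svip (-0.12, adjusted p = 0.0551), which binds p97, did not pass. Words shared with other genes made up 43.6% of Vcp, so its value is uncertain.

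Transcripts of other ubiquitin ligases of the ER membrane, and of the ER membrane protein Tmem259 (membralin) listed with them, moved in both directions. Of 14, 7 rose, 2 fell and 5 did not pass, and the list's median was 0.09 on the log2 scale. Both directions were also common over all genes tested, where 31.8% rose, 32.5% fell and 64.3% were called either way. Rnf185 rose 1.64-fold, with 59.4 ± 1.80 CPM with tunicamycin (SD, n = 6) and 36.0 ± 1.101 CPM with DMSO (SD, n = 4), and Rnf121 rose 1.35-fold. Rnf145, a ligase known from the control of cholesterol synthesis, fell to 39.2 ± 1.255 CPM with tunicamycin, against 78.3 ± 1.245 CPM with DMSO (log2 -1.01 ± 0.03, edgeR adjusted p = 2.39e-16). Rnf5 also fell (-0.24), with 24.7% of its exonic bases under another gene. Syvn1, at a log2 fold change of 1.52, stood above every one of these 14, of which the highest was 0.72.

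Transcripts of relatives of the derlins and of Sel1l outside the complex moved in both directions. Of 13, 10 were tested, of which 4 rose, 4 fell and 2 did not pass, where 31.8% of all genes tested rose and 32.5% fell. The median of the 10 was 0.06 on the log2 scale. Rhbdd1, an active rhomboid protease of the ER, rose 2.55-fold, with 31.8 ± 1.41 CPM with tunicamycin (SD, n = 6) and 12.4 ± 0.64 CPM with DMSO (SD, n = 4; edgeR adjusted p = 2.49e-15). Rhbdl3, another rhomboid, fell (log2 -0.70 ± 0.09), and so did Sel1l3, a protein with SEL1-type repeats (-0.40 ± 0.05). Rhbdl2, Rhbdf2 and Sel1l2 did not pass the expression filter.

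Genes for sensors and transcription factors of the unfolded protein response mostly rose, 10 of 13, and the list's median was 0.89 on the log2 scale. Of all genes tested, 31.8% rose and 32.5% fell, with a median of -0.02. The CHOP gene Ddit3 rose 7.65-fold, Eif2ak3, which encodes the kinase PERK, 3.18-fold and Atf4 2.61-fold (edgeR adjusted p = 2.54e-22, 3.38e-19 and 6.48e-19). Atf6 and Xbp1, whose products are known to bind ERSE-type letters, had log2 fold changes of 1.28 and 1.29. Mbtps1, the site-1 protease that cuts ATF6, fell (-0.18), and its partner Mbtps2 (-0.06), which shares 28.4% of its exonic bases with another gene, and Atf6b (-0.04) did not pass. Exons of Ddit3 lie under other genes in 10.9% of their bases, and its value is uncertain to that extent.

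**Figure D5:**
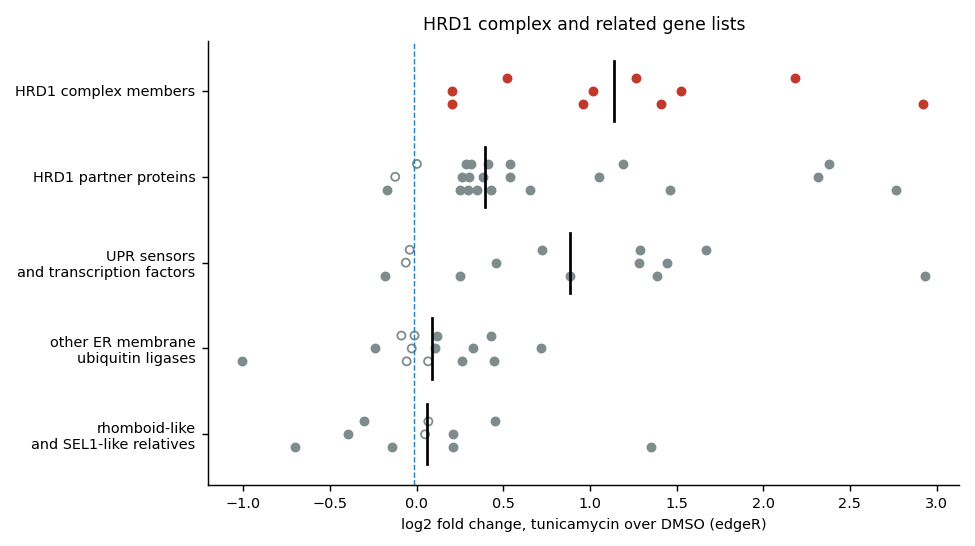
Log2 fold change, tunicamycin over DMSO, of each tested gene in 5 lists; filled points passed the edgeR test, open points did not, black bars are list medians and the dashed line is the median of all genes tested (-0.02). The HRD1 genes (red) lie between 0.20 and 2.92, and the other ligases between -1.01 and 0.72.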

How the data were processed

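For each library the authors deposited unnormalized whole-number counts per gene. They also deposited tables of up- and downregulated genes with a log2 fold change, an adjusted p-value and a normalized signal per library, which equalled the counts divided by 1 factor per library within 1e-4 for all listed genes. Per the labels' protocols, sequencing gave single-end reads of 50 bp from libraries of the TruSeq RNA kit v2, a kit without strand marking. STAR 2.5.2b, featureCounts, Subread 1.5.1, DESeq2, FastQC 0.11.5 and the build mm10 (GRCm38) are named per the submitters' processing notes, without roles. The annotation release and the counting settings are not stated there.

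GENCODE M21 matched 48349 of 48709 identifiers, and the rest held 0.046% of counts. The main test was edgeR 4.0.16 (R 4.3.3; quasi-likelihood F test, robust, TMM, filterByExpr) on all 10 libraries, adjusted by Benjamini-Hochberg over 15660 genes and called under 0.05. The SE is the log2 fold change divided by the square root of F. Ratios of members used counts with 0.5 added and an exact permutation test of the difference of means. On counts simulated for this comparison over 15660 genes, the edgeR test found 70% of the genes simulated with a 1.25-fold change, 82% of those with 1.5-fold, 96% of those with 2-fold and 100% of those with 4-fold. It also called 13 genes simulated without a change. How far these values carry over to the deposited counts, where 10065 genes were called, was not tested.

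The members and lists were chosen with earlier results of these data known. Named genes are the 10 members, the 3 genes with the smallest p of each other pathway list and the most abundant gene of each marker list; the other genes named were added after their values were seen. Nothing in the labels ties the libraries of a group to separate cultures. The p-values thus reflect library-to-library spread only, possibly technical. No library repeated another, with chi-square per degree of freedom of 2.07 to 9.64 within groups. Alternatives were DESeq2 1.42.0, other scalings and filters, lane as a term, each lane alone, a replicate block and each library left out.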

Additional observations from a re-analysis of the deposited data

How the results depend on the processing

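All 10 HRD1 genes rose under DESeq2 (4932 of 20306 genes tested rose), RLE scaling (5047 of 15660) and lane as a term (4946 of 15660). They also rose without a filter (5323 of 30291) and with a mean of at least 1 CPM (4812 of 13714). With each library left out all 10 rose too, where 4796 to 4963 of all genes tested did. Under upper-quartile scaling 9 rose, as did 3632 of 15660 genes. In lane 1 alone 9 rose, as did 3957 of 15632. Os9 missed the threshold in both. In lanes 2 and 3 alone, which hold 3 libraries each, all 10 log2 fold changes were above 0. A call there rests on a spread borrowed across genes. With a replicate block 8847 genes were called, against 10065 without it. All 10 HRD1 genes still rose, as did 4467 of the 15660 genes tested. The replicate numbers pair no samples by the labels, and same-numbered libraries correlated at -0.217 to 0.009 in their deviations. The rhomboid and SEL1 relatives had 2 rising genes, against 4, under upper-quartile scaling and in lane 2 alone. Ranks of levels per length stayed for 4 of 10 genes with tunicamycin when the longest transcript gave the length, where Selenos and Os9, Syvn1 and Derl1, and Derl2 and Erlec1 changed places. With DMSO Erlec1 and Derl1 did. Within lanes, differences of log2 ratios moved beyond the spread for Derl2 to Derl1 (0.25 in lane 3), Sel1l to Syvn1 (-0.39 in lane 1, -0.64 in lane 3), Herpud1 to Syvn1 (1.47 and 1.29) and Selenos to Syvn1 (-0.17 and -0.36), all in the same direction; the cause was not tested. The difference for Os9 to Erlec1, near 0, was -0.0988, -0.0112 and 0.137 in lanes 1, 2 and 3 and -0.0363 to 0.0291 with each library left out.

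Among marker genes not called, the log2 fold change of Aif1 was 0.0078 with DESeq2, 0.0029 with RLE scaling, 0.019 without a filter, 0.0023 with lane as a term, 0.014 and 0.043 in lanes 1 and 3 alone and -0.0418 to 0.0444 with each library left out. That of Mbp was -0.0606 under upper-quartile scaling and -0.0154 to 0.1477 with each library left out, and that of Col1a1 was 0.31 in lane 3 alone, and called lower in lane 1 alone (-0.97, adjusted p = 3.11e-06) and without DMSO replicate 4 (-0.72, adjusted p = 0.0303). Depth limits Derl3 most, at 48 to 58 counts per DMSO library.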

Other observations

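In all, 49 genes, 3 of them HRD1 genes, had an ERSE or ERSE-II in a RefSeq promoter window, and 27 of the 49 were tested. Of these 27, 22 rose and their median log2 fold change was 0.54, where 31.8% of all genes tested rose with a median of -0.02. The list was drawn up after the members' windows had been seen and gets no test. As the element was already named for ER stress, nothing about its role is concluded from the rises in this list. Its largest rises were those of Creld2 (log2 3.09), Herpud1 (2.92), the BiP gene Hspa5 (2.38), Derl3 (2.18), the BiP co-chaperone Dnajc3 (1.85) and the mannosyltransferase Alg12 (1.54), ahead of Syvn1 (1.52), and those that fell were Adcy3 (-0.23), Acacb (-0.94) and Calr4 (-1.10). Genes with the C/EBP-ATF letters rose in 42 of 82 cases (51.2%), those with TGACGTGG in 54 of 119 (45.4%), and those with the short boxes CCACG and CCAAT in 36.0% and 33.8%.

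For 5 of the 10 HRD1 genes (Sel1l, Herpud1, Derl1, Derl2 and Selenos) the 2 tunicamycin libraries of sequencing lane 3 were the lowest of the 6 tunicamycin libraries in CPM, which held for 8.99% of all genes tested. This count was made after the values were seen and has no test. In these libraries Herpud1 had 452.2 and 465.8 CPM, and Derl2 126.1 and 126.0 CPM. The lower of the pair was still 6.91 times the highest DMSO library for Herpud1 and 2.42 times for Derl2.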
